A study of Bos grunniens with 6 samples.

Results

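The genes described here code for zinc finger proteins named ZBTB, ZFP, ZFHX, ZSCAN, ZKSCAN, ZBED, ZMYM, ZMYND, ZC3H, ZHX, ZEB, KLF, EGR, GLI or IKZF, together with a few genes whose symbols begin with the same letters. They were chosen by symbol from the annotated list of N6-methyladenosine (m6A) peaks, leaving out *ZBTB16*, and hold 272 of 16186 peaks (1.68%). These peaks lie on 137 of 8986 gene identifiers with a peak (1.52%) and carry 120 different symbols. A symbol is given in the list only where a gene has a peak, so having a peak is part of the choice and not a result. Relatives whose symbol is given to no listed peak, among them *ZFX*, *ZFP42*, *ZEB1*, *ZMYND10*, *ZMYND15*, *IKZF1* and *KLF17*, were not analysed here.

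Testis was taken by castration from 3 healthy cattle-yaks aged 5 years, named TES5, TES6 and TES7. The cattle-yak is the hybrid of yak and cattle, and its first-generation males are sterile. Fragmented polyadenylated RNA of whole tissue gave 1 library of m6A-immunoprecipitated RNA and 1 input library per animal, which makes 6 libraries and 1 condition. The peaks are 1 list for the group with no score and no value per animal, whereas expression is given for each animal as FPKM (fragments per kilobase of transcript scaled to the mapped fragments of the library) in the input library. Reads were aligned to the yak assembly LU_Bosgru_v3.0, so cattle alleles of these hybrids were also read against a yak reference. In whole tissue, fewer cells of a type and less RNA per cell cannot be told apart.

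Zinc fingers are short protein folds held together by a zinc ion, and most of the proteins described here use rows of them to read DNA. A BTB domain (ZBTB), a KRAB domain (in many ZFP and ZKSCAN proteins) or a SCAN domain (ZSCAN, ZKSCAN) joined to the fingers recruits partners or pairs the protein with another copy, and many such proteins silence their targets. The fingers of such genes are often coded by a single long last exon. The CCCH type found in ZC3H and ZFP36 proteins binds RNA instead, and one of them, *ZC3H13*, is a subunit of the complex that writes m6A. Members of the KLF, EGR and GLI families act as transcription factors downstream of growth signals, and the GLI factors carry the Hedgehog signal by which Sertoli cells of the testis address Leydig and peritubular cells.

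Gene Ontology terms gave a check on the families by name. Of 124 identifiers with a term in the list, 107 (86.3%) had metal or zinc binding, against 31.6% of all genes with a peak and a term. DNA binding was given for 92 (74.2%, against 14.7%) and the nucleus for 112 (90.3%, against 40.6%). RNA binding was given for 9 (7.26%), close to the 7.52% of all genes. *GLIPR1L2*, *GLIPR2* and *ZBTB8OS* entered through the letters of their symbols and are not zinc finger genes.

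The m6A peaks of these genes lay mostly in exons. Of the 272 peaks, 207 were of the exon class (76.1%, Wilson 95% interval 70.7 to 80.8), 37 of the 3' UTR class (13.6%, 10.03 to 18.2) and 28 of the 5' UTR class (10.3%, 7.22 to 14.5). Over all peaks the shares were 70.3%, 20.8% and 8.82%. In the large group of genes with ZNF symbols, the nearest relatives by name, the shares over 524 peaks were 80.5%, 12.6% and 6.87%. The 3' UTR class thus took a smaller share in both groups of zinc finger genes than in the whole list. Such intervals describe counting error alone, because neither peaks nor genes are replicates of a condition, and no test was made of these differences.

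**Figure D1:**
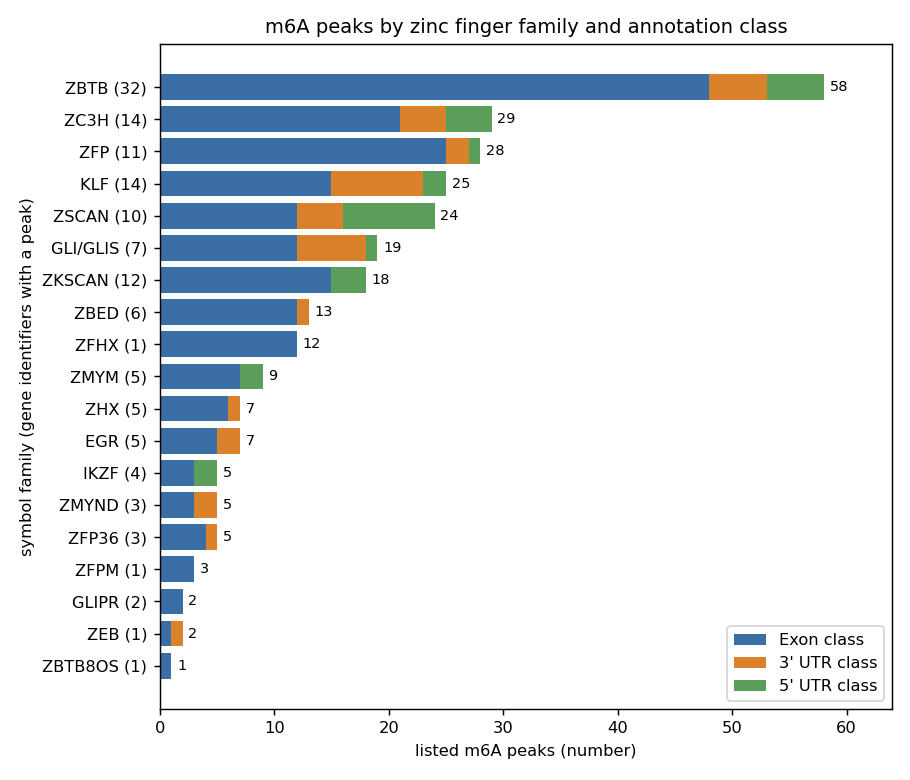
Number of listed m6A peaks (horizontal axis) in each symbol family (vertical axis, with the number of gene identifiers in brackets), stacked by annotation class. The ZBTB family has the most peaks (58 on 32 identifiers), the ZSCAN family holds 8 of its 24 peaks in the 5' UTR class, and all 12 ZFHX peaks are of the exon class.

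The families differed in where their peaks were annotated. The ZBTB genes held 58 peaks on 32 identifiers, of which 48 were of the exon class, 5 of the 3' UTR class and 5 of the 5' UTR class. In the KLF genes, by contrast, 8 of 25 peaks were of the 3' UTR class, and in the GLI and GLIS genes 6 of 19. The KLF count includes the identifiers of uncertain identity with the symbols *KLF3* and *KLF9*. Of 24 ZSCAN peaks, 12 were of the exon class, 8 of the 5' UTR class and 4 of the 3' UTR class. Of 18 ZKSCAN peaks, 15 were of the exon class and 3 of the 5' UTR class. The counts within a family are small, and several peaks can lie on 1 gene, as for *ZSCAN12*, which alone gave 3 of the 8.

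The peaks were narrower than those of the list as a whole. Peak width is the span on the genome, introns included, so a peak that joins exons across an intron is wide even where it covers little RNA. Of the 272 peaks, 162 were at most 1000 bp wide (59.6%, 53.6 to 65.2), against 49.8% of all peaks and 65.6% of ZNF peaks. The median width was 647.5 bp (quartiles 332 and 3132), against 1022 bp over all peaks and 591.5 bp in ZNF genes. The listed transcripts were also shorter, with a median span of 15965 bp against 28394 bp and a median of 5 exons against 12. The part of transcript structure in the widths was not tested.

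**Figure D2:**
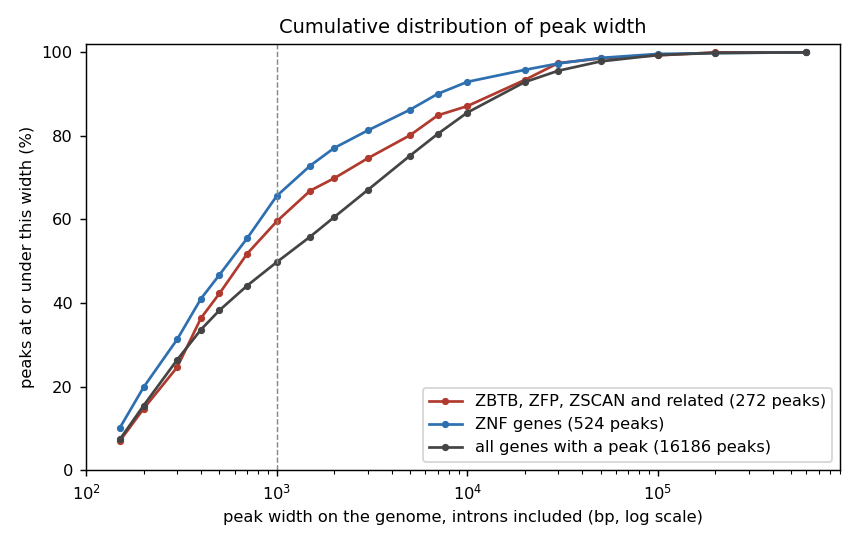
Cumulative share of peaks (vertical axis, %) at or under a given genomic width (horizontal axis, bp, log scale) for the 272 zinc finger peaks described here, the 524 ZNF peaks and all 16186 peaks. At 1000 bp (dashed line) the 3 curves stand at 59.6%, 65.6% and 49.8%.

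Width depended on the class. The median was 648 bp in the exon class (all peaks: 1333), 400 bp in the 3' UTR class (all peaks: 447) and 5409.5 bp in the 5' UTR class (all peaks: 1985). Of the 28 peaks of the 5' UTR class, 18 were wider than 1000 bp. The 5 widest peaks fell on *KLF7*, *GLI3*, *ZC3H13* and *ZSCAN30*. The peak of *KLF7*, a Krüppel-like factor known from neurons, was 111432 bp wide (5' UTR class, chromosome 2, 45327257 to 45438688) and covered nearly the whole listed transcript of 111496 bp. *GLI3*, the Hedgehog factor that acts mainly as a repressor, had peaks of 101466 bp (5' UTR class) and 74149 bp (exon 7 of 17). The *ZC3H13* peak of 63579 bp was annotated to the 3' UTR although it spans much of the gene (chromosome 15, 67691049 to 67754627), and the *ZSCAN30* peak of 48671 bp contains the whole listed transcript of 1327 bp. For peaks of this kind the class names only 1 of the features crossed.

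Along the listed transcript, the peak centres gathered towards the 3' end and were fewest in the middle. Of 254 peaks whose centre lay on the transcript's span and that could be placed, 113 (44.5%, 38.5 to 50.6) lay in the 80% to 100% stretch of the span (counted from the 5' end) and 49 (19.3%, 14.9 to 24.6) in the stretch up to 20%, while 40% to 60% held 23 (9.06%, 6.11 to 13.2). Over 15413 placed peaks of all genes these shares were 44.3%, 15.1% and 13.6%. An even spread would put 20% of the peaks in each such stretch, so the one up to 20% held about an even share. Positions are on the genomic span, in which introns count.

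Exon numbers also placed many peaks at the 3' end, but by this measure the share stood above that over all genes. The last exon of the listed transcript was the label of 78 of 207 peaks of the exon class (37.7%, 31.4 to 44.5), against 18.2% over all genes and 44.8% in ZNF genes. If every exon counted equally, these shares would be 31.1%, 16.9% and 27.1%. Transcripts with a single exon, whose only exon is also the last, gave 24 of these peaks (11.6%, against 4.34%). In transcripts with at least 3 exons, 32 of 148 peaks were annotated to the last exon (21.6%, 15.8 to 28.9), against 11.6% over all genes and 37.2% in ZNF genes. Counting every exon of the listed transcript equally would place 15.4%, 10.5% and 18.9% there. Peaks of at most 1000 bp gave nearly all of them, with 30 of 77 annotated there (39.0%, 28.8 to 50.1) against 2 of 71 wider peaks (2.82%, 0.776 to 9.70). The same split was seen over all genes, with 25.6% of narrow and 1.85% of wider peaks, and in ZNF genes, with 52.3% and 11.6%. Each peak carries 1 exon number, however wide it is. The wide exon class peaks of *IKZF3* (24473 bp) and *ZMYND11* (3876 bp), for example, run to the 3' end of the span. The split is therefore one of labels, and how many wider peaks reach the last exon was not counted.

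Several peaks on 1 gene were common. A single peak was listed for 61 of 137 identifiers (44.5%, 36.5 to 52.9), against 54.0% of all genes with a peak and 36.2% of ZNF genes, and the mean was 1.99 peaks per identifier, against 1.80 and 2.13. Another 45 identifiers had 2 peaks, 21 had 3, and 10 had 4 or more. Adjacent peaks can be parts of 1 broader signal. When peaks of the same gene within 100 bp of each other were joined, 233 peaks remained and 53.3% of identifiers had 1. No joined share is given for all genes or ZNF genes, so this value is not set against their 54.0% and 36.2%.

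**Figure D3:**
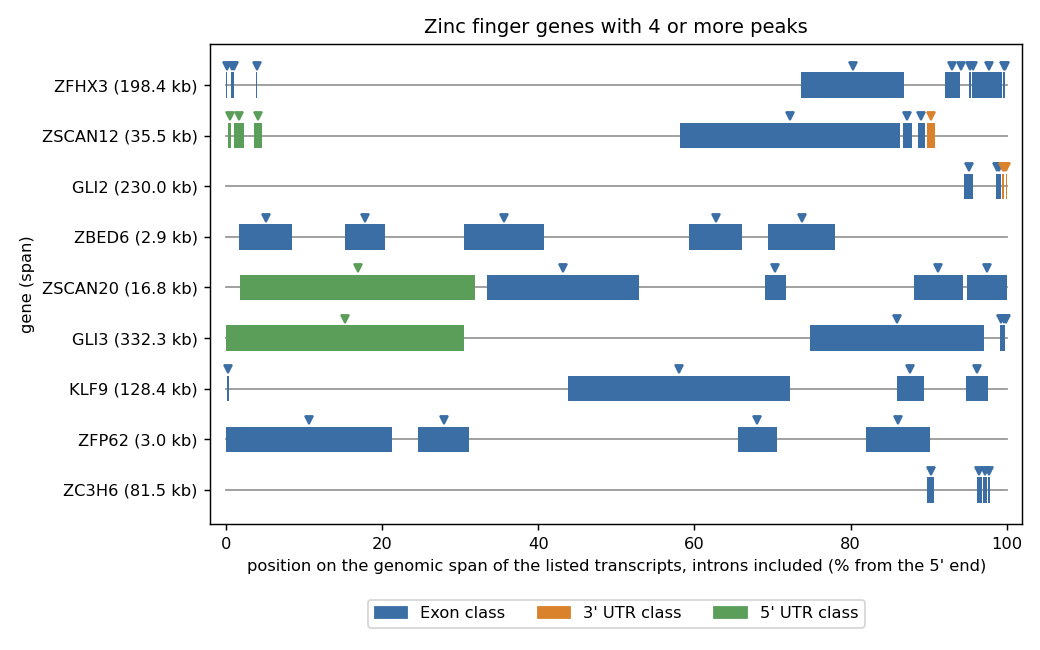
Peaks (bars, with a marker at each centre) on the genomic span of the listed transcripts, 5' to 3' (horizontal axis, % of the span, introns included), for 9 of the 10 genes with 4 or more peaks, coloured by annotation class. *ZFP64*, whose 6 peaks lie off its listed transcript, is left out. The identifier drawn as *KLF9* is of uncertain identity. The peaks of *GLI2* and *ZC3H6* sit close to the 3' end of the span, those of *ZFHX3* and *ZSCAN12* mostly towards both ends.

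*ZFHX3*, a very large transcription factor with zinc fingers and homeodomains, had the most peaks. Its identifier ENSBGRG00000021541 (chromosome 20, 7774906 to 7973322, minus strand) carried 12 peaks, all of the exon class. They were annotated to exons 1, 2, 4, 7, 9, 10 and 11 of 11, with 3 in exon 1 and 3 in exon 10, and were between 150 and 25943 bp wide. Joined within 100 bp they were 7. Its FPKM was 2.25 in TES5, 3.13 in TES6 and 3.59 in TES7 (2.99 ± 0.681, SD, n = 3). The gene with the most peaks was thus expressed below the median of these genes.

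The Hedgehog factors *GLI2* and *GLI3* were also among the genes with 4 or more peaks. *GLI2*, the main activator of the pathway (ENSBGRG00000002594, chromosome 2, 70142720 to 70372725), had 6 peaks. A peak of 2823 bp was annotated to exon 10 of 15, followed by 2 peaks in the last exon and 3 in the 3' UTR. *GLI3* (ENSBGRG00000009720, chromosome 4) had 5, of which 3 were 200 to 1030 bp wide and lay in exons 14, 15 and 17 of 17. *GLI1* (ENSBGRG00000006415, chromosome 5), itself a target gene of the pathway, had 3 in exons 11, 13 and 14 of 14. In all 3 genes at least 1 peak lay in the last exon.

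Expression of the GLI factors was low. *GLI1* had an FPKM of 3.46, 4.40 and 4.17 in TES5, TES6 and TES7 (4.01 ± 0.493), and *GLI2* of 1.71, 2.04 and 2.21 (1.99 ± 0.254). *GLI3* had 1.18, 1.82 and 1.67 (1.56 ± 0.333). All 3 were lowest in TES5. *GLI4*, which shares the name, stood higher at 8.80, 7.14 and 7.49 (7.81 ± 0.878) and had its highest value in TES5. Among the related GLIS genes, *GLIS1*, *GLIS2* and *GLIS3* had 1 peak each and mean FPKM of 2.03, 5.97 and 0.664.

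Of 11 other symbols of the Hedgehog pathway, 9 were listed with a peak, on 10 identifiers, all of them at 1 FPKM or more in each animal. As background for this and the partner lists that follow, 41.9% of the 20953 genes in the expression table had a listed peak, and 66.9% of the 11402 genes at 1 FPKM or more in each animal. The partner lists hold 54 symbols in all, of which 42 had a peak, and nothing particular to a list is read from its count. The ligand *DHH*, which Sertoli cells secrete, had a mean FPKM of 19.0 ± 2.41 and a peak in the 3' UTR. The receptor *PTCH1* had 12.9 ± 1.80 (the higher of its identifiers), and *SMO*, which passes the signal on, 8.77 ± 2.03. *SUFU*, which holds the GLI proteins in check, had 3.00 ± 0.557.

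Among the SCAN genes, *ZSCAN12* had the most peaks. Its identifier ENSBGRG00000015969 (chromosome 24, 4696534 to 4732000) carried 7, with 3 in the 5' UTR, 1 of 9949 bp annotated to exon 1 of 4, 2 narrow ones in the last exon and 1 in the 3' UTR. Its FPKM was 1.28, 1.28 and 1.54 (1.37 ± 0.150). *ZSCAN20* (ENSBGRG00000009382, chromosome 3, 122812543 to 122829303) had 5 peaks, 1 of 5055 bp in the 5' UTR and 4 in exons 2, 6, 7 and 8 of 8, at an FPKM of 2.25, 2.73 and 2.29 (2.43 ± 0.266).

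Many SCAN genes were neighbours. On chromosome 24, between 4453943 and 4732000, 10 ZSCAN and ZKSCAN identifiers held 20 peaks, out of 12 genes with a peak and 23 peaks in this span of 278058 bp. In order along the chromosome they were *ZSCAN16*, 5 identifiers named *ZKSCAN8*, *ZKSCAN4*, *ZSCAN26*, *ZSCAN31* and *ZSCAN12*. Their mean FPKM ran from 0.986 in a *ZKSCAN8* identifier to 10.98 in another. Chromosome 24 held 12 of the 137 identifiers (5.13% of its genes with a peak), chromosome 18 held 9 (5.14%) and chromosome 20 held 11 (2.06%). The 5 *ZKSCAN8* identifiers may share reads, so the level of each is uncertain.

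*ZSCAN31* differed most between animals among these SCAN genes, with an FPKM of 5.77, 9.08 and 2.95 (5.94 ± 3.07) and peaks in the 5' UTR and an exon. *ZKSCAN1*, whose transcript is also known as the source of a circular RNA, was the most expressed SCAN gene. It had 23.1 in TES5, 34.3 in TES6 and 35.2 in TES7 (30.9 ± 6.74) and 1 peak of 250 bp in an exon. *ZKSCAN4*, the ZKSCAN identifier with the most peaks, had 3 and 8.09, 7.15 and 7.59 (7.61 ± 0.471). As families, the ZSCAN genes had a median FPKM of 2.46 and the ZKSCAN genes of 3.33, below the median of 5.37 over the 137 identifiers.

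The ZBTB genes, many of which are repressors that recruit corepressors through the BTB domain, were expressed in nearly every case, with 31 of 32 identifiers reaching an FPKM of 1 in each of the animals. The highest was *ZBTB7B*, known as the factor that directs T cells to the CD4 lineage (ENSBGRG00000009590, chromosome 3), at 36.0, 31.0 and 35.3 (34.1 ± 2.70), with a peak in each of its 2 exons. *ZBTB18*, a repressor in developing neurons, had 30.7, 25.3 and 28.5 (28.2 ± 2.73) and a single 5' UTR peak of 6511 bp. Both varied little between animals.

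*ZBTB47* had 24.7, 23.7 and 25.9 (24.8 ± 1.15) and 3 peaks, 2 in exons and 1 in the 3' UTR. *ZBTB7A*, a repressor also called LRF, had 8.98, 9.33 and 11.6 (9.97 ± 1.43) with 1 peak in each UTR. *ZBTB20*, a repressor known from liver and brain, was much more uneven at 1.48, 2.88 and 3.46 (2.61 ± 1.02), lowest in TES5, with 1 exon peak of 939 bp. No ZBTB gene had more than 3 peaks. Of 8 symbols of BTB corepressors and partners, 7 were listed with a peak, among them *HDAC1* at a mean FPKM of 48.6 and *NCOR1* at 19.4.

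The CCCH genes that act on RNA were expressed at moderate levels. *ZC3H13* (ENSBGRG00000022439, chromosome 15) had an FPKM of 12.9, 14.8 and 16.3 (14.7 ± 1.67), with a peak of 458 bp in exon 1 of 19 besides the wide one. The mRNA of this writer subunit thus carried listed m6A peaks itself. Of 6 other writer symbols, *METTL14*, *RBM15* and *VIRMA* were listed with a peak, at 5.95 ± 0.273, 13.9 ± 0.801 and 25.2 ± 1.64 (the higher of the *VIRMA* identifiers).

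*ZC3H14*, a protein that binds poly(A) tails, had 31.2, 26.0 and 23.6 (26.9 ± 3.87) and 1 peak in each class. *ZC3H6* had 4 peaks, in exons 9 and 12 of 13, at only 2.04, 2.82 and 2.47 (2.44 ± 0.388), and the 3 in exon 12 lay side by side, so that joining left 2. *ZC3H12A*, the ribonuclease Regnase-1 of inflammatory cells, was low at 0.960, 0.769 and 0.781 (0.837 ± 0.107) with 2 exon peaks. The symbol *ZC3H18* stood on 2 identifiers on chromosome 20, of 18 and 7 exons, with mean FPKM of 14.6 and 25.9, and which of them is the gene cannot be told either.

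The ZFP36 proteins bind AU-rich elements in 3' UTRs and hand the mRNA to the CCR4-NOT deadenylase. *ZFP36L2* had 32.6, 31.2 and 35.9 (33.3 ± 2.43) and *ZFP36L1* had 22.4, 25.05 and 24.3 (23.9 ± 1.36), with little difference between animals. *ZFP36* itself was lower and less even, at 11.7, 7.14 and 8.87 (9.23 ± 2.29). They carried 2, 1 and 2 peaks, all under 500 bp and all but 1 of the exon class. All 7 CCR4-NOT symbols examined had a peak, at mean FPKM from 11.01 (*CNOT6*) to 48.0 (*CNOT1*).

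The identifiers with a symbol of the Krüppel-like factors were all expressed, with 14 of 14 above 1 FPKM in each animal and a median of 7.15. They include 2 identifiers each for *KLF3* and *KLF9*, 1 of them with a listed transcript of 21 exons (*KLF3*) and 1 of 25 (*KLF9*). Which identifier of each pair is the named gene is uncertain. *KLF11* was highest at 19.2, 25.8 and 25.8 (23.6 ± 3.82) with 1 exon peak of 2229 bp. *KLF4*, a pluripotency factor also known from Sertoli cells, had 5.64, 5.33 and 6.40 (5.79 ± 0.548) with a 3' UTR peak of 2289 bp. *KLF7*, the gene of the widest peak, had 3.98, 4.67 and 5.77 (4.81 ± 0.900). The values of the 3 animals were within about 1.5-fold of each other in these genes.

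*KLF15*, a factor induced by glucocorticoids, and *KLF13* were less even. *KLF15* had 4.44, 5.67 and 8.81 (6.31 ± 2.25), and *KLF13* had 9.06, 13.0 and 15.9 (12.7 ± 3.44). Both were lowest in TES5 and highest in TES7. The symbol *KLF9* stood on 2 identifiers on chromosome 7, and which of them is the gene cannot be told from the files. In another yak assembly RefSeq lists *KLF9* once, between *SMC5* and *TRPM3*, so neither set of peaks is read as that of *KLF9*. The one with 4 peaks, ENSBGRG00000000389, has a listed transcript of 25 exons over 73345419 to 73473799 and an FPKM of 9.15, 9.51 and 9.09 (9.25 ± 0.228). The other, with 2 exons and 1 peak, had 7.22, 7.98 and 12.7 (9.29 ± 2.96).

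The EGR genes respond within minutes to growth signals. An identifier with the symbol *EGR2*, of uncertain identity, held the highest value among these genes. The *EGR2* identifier ENSBGRG00000025837 (chromosome 27, 17884676 to 17887546, plus strand, 2 exons) had an FPKM of 865 in TES5, 406 in TES6 and 292 in TES7 (521 ± 303) and 1 peak of 590 bp in exon 1. A second *EGR2* identifier, ENSBGRG00000025832 (17847232 to 17852519, minus strand, 3 exons), had 1.16, 1.25 and 1.61 (1.34 ± 0.236) and 2 peaks in its last exon. Which of them is the gene known as *EGR2* cannot be told from the files, and in another yak assembly RefSeq lists *EGR2* once, between *NRBF2* and *ADO*. The value of 521 is therefore not read as the level of *EGR2*.

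*EGR1* (chromosome 8) had 18.9, 9.84 and 9.74 (12.8 ± 5.26) and 1 peak of 1284 bp in its last exon. *EGR4*, needed for male fertility in mice, was low at 0.416, 0.540 and 0.491 (0.482 ± 0.0628) with 1 exon peak. *EGR3* was also low (0.384 ± 0.147) with 2 peaks in the 3' UTR. The EGR corepressors *NAB1* and *NAB2* both had a peak and mean FPKM of 13.0 and 26.1.

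**Figure D4:**
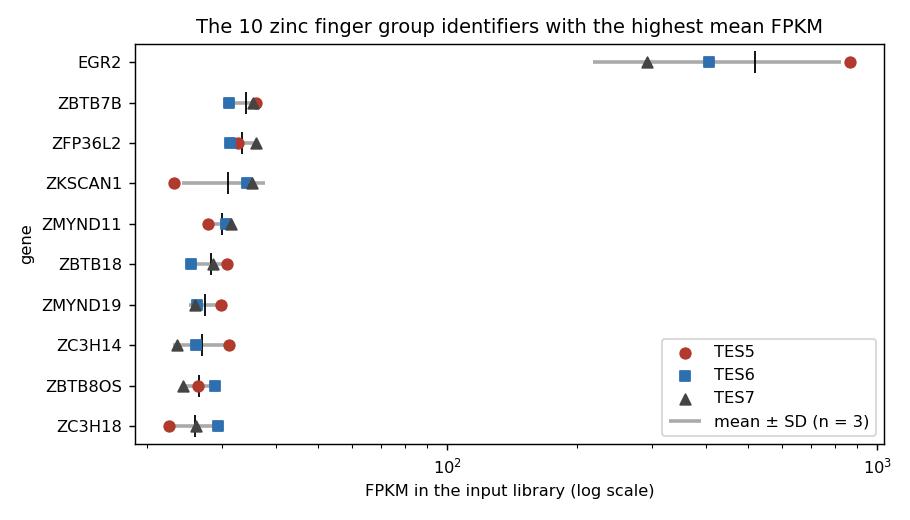
FPKM in the input library of each animal (horizontal axis, log scale) for the 10 identifiers with the highest mean, with the mean (tick) and SD (grey bar, n = 3). The *EGR2* identifier of uncertain identity stands at 292 to 865, whereas the other 9 have means between 25.9 and 34.1.

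Of the chromatin regulators, *ZMYND11*, a reader of methylated histone H3 on transcribed genes, had 27.8, 30.5 and 31.4 (29.9 ± 1.86) with 1 exon peak of 3876 bp. *ZMYND19* had 29.7, 26.2 and 25.9 (27.3 ± 2.13) with a 3' UTR peak of 400 bp. *ZMYND8*, another histone reader, had 3 peaks and a lower level of 7.68, 8.16 and 9.40 (8.41 ± 0.888). *ZMYM2*, which belongs to complexes with the demethylase LSD1, had 18.0, 17.3 and 17.4 (17.6 ± 0.387) with a 5' UTR peak of 25097 bp. *ZMYM5* had 3 peaks at 10.9, 9.75 and 11.3 (10.6 ± 0.786). The gene of LSD1, *KDM1A*, had a mean FPKM of 40.7, and 6 of 8 symbols of that complex were listed with a peak.

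*ZEB2*, a repressor of epithelial genes, had 8.19, 11.1 and 10.7 (10.02 ± 1.60) and wide peaks of 29245 and 11351 bp in exon 3 and the 3' UTR. All 4 symbols of its partners had a peak, *CTBP1* and *CTBP2*, its corepressors, at mean FPKM of 50.1 (the highest *CTBP1* identifier) and 11.8. *ZFPM2*, also called FOG2, the partner of GATA factors in gonad formation, was low at 0.552, 0.616 and 0.805 (0.658 ± 0.131) with 3 narrow exon peaks. Of 3 GATA symbols, *GATA6* was listed with a peak, at 18.7. *IKZF5*, a member of the Ikaros family, had 6.19, 5.34 and 5.27 (5.60 ± 0.514) and 2 peaks. The ZHX genes, repressors with zinc fingers and homeodomains, had 7 peaks on 5 identifiers with means between 4.44 and 8.16.

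Of 5 symbols of the machinery that KRAB domains recruit, 3 had a peak, with *SETDB1*, a histone methyltransferase, at 23.3. The ZBED and ZFP genes included several with many narrow peaks in a single exon. *ZBED6*, a repressor of *IGF2* derived from a transposon, had 5 peaks of 150 to 300 bp in its only exon (ENSBGRG00000008085, chromosome 14, 83879036 to 83881978) and an FPKM of 2.75, 4.15 and 4.67 (3.86 ± 0.991). A second identifier with this symbol and a transcript of 17 exons had 1 peak and 13.7, 14.6 and 15.4 (14.6 ± 0.832). *ZFP62* had 4 peaks of 151 to 648 bp in its only exon (ENSBGRG00000012776, chromosome 8, 43268675 to 43271713) at 3.31, 3.04 and 2.76 (3.04 ± 0.273). Both genes show that several peaks can lie within about 3 kb of exonic sequence.

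Some peaks could not be tied firmly to their gene. The symbol was shared by more than 1 identifier for 14 symbols on 31 identifiers, and 106 symbols stood on 1. The *ZFP64* identifier ENSBGRG00000005846 had 6 peaks, but all of them lay outside its listed transcript and were annotated to exons of other gene identifiers. Its FPKM was listed at 0, 0.134 and 0. Together with single peaks of *ZBTB25*, *ZKSCAN2* and *ZSCAN2*, 9 of the 272 peaks were placed by the annotation in an exon of a different gene identifier. A further problem is a peak that contains the whole listed transcript, which was found for 4 (*ZBED3*, *ZSCAN2*, *ZSCAN29*, *ZSCAN30*). The identifiers *ZBED3* ENSBGRG00000007739 and *ZKSCAN2* ENSBGRG00000019281 were listed at an FPKM of 0 in all 3 animals, which can also be a failed estimate, and *ZSCAN2* had 0.0458, 0.0480 and 0. None of the 272 peaks overlapped a listed peak of another gene (0 of 272, which allows a share of up to 1.39%).

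As a set these genes were expressed somewhat below other genes with a peak. The mean FPKM had a median of 5.37 (quartiles 2.54 and 9.76), against 7.36 for all genes with a peak and 4.77 for ZNF genes. In 121 of 137 identifiers the FPKM was 1 or more in each animal (88.3%, 81.9 to 92.7), against 86.9% of all genes with a peak. FPKM keep no read numbers, so no detection limit can be given.

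Peaks per identifier were highest at a mean FPKM of 1 to 5, with 2.55 (47 identifiers, 120 peaks). Below 1 there were 1.73, at 5 to 10 1.62, at 10 to 20 1.95 and at 20 or more 1.46. Over all genes with a peak the numbers were 1.89 at 1 to 5 and, in the same order, 1.45, 1.95, 1.85 and 1.61. Spearman's rho between peak number and mean FPKM was -0.11 over the 137 identifiers and -0.003 over 8775 genes, and that between peak number and transcript span was 0.22 and 0.29. These are descriptions across genes, which share their libraries. The median peak width was 296.5 bp below 1, 498 bp at 1 to 5, 1232.5 bp at 5 to 10, 2239 bp at 10 to 20 and 833 bp at 20 or more. Over all genes with a peak it was 294, 646, 1385.5, 1677 and 1485.5 bp.

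The 3 animals were similar but not equal. Pearson's r of log2(FPKM + 1) over 132 identifiers was 0.975 for TES5 with TES6, 0.976 for TES6 with TES7 and 0.956 for TES5 with TES7. The coefficient of variation had a median of 12.3%, against 11.6% for all genes with a peak and 11.8% for ZNF genes. Of the 121 expressed identifiers, 62 were lowest in TES5 (51.2%, 42.4 to 60.0). The share was 41.8% of all expressed genes with a peak and 47.9% of expressed ZNF genes, so the ZNF genes leaned the same way. In TES7, 50 were highest (41.3%, 32.9 to 50.2), against 34.5% of all and 31.2% of ZNF genes. All 5 expressed ZBED identifiers, 5 of 6 GLI and GLIS and 8 of 14 KLF identifiers had their lowest value in TES5. The lowest value was in TES5 for 15 of 31 ZBTB, 7 of 13 ZC3H, 4 of 7 ZSCAN, 4 of 10 ZKSCAN, 2 of 8 ZFP, 2 of 5 ZHX, 1 of 3 EGR and 1 of 3 ZFP36 identifiers.

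A highest value at least 1.5-fold the lowest was found for 28 of the 121 (23.1%, against 17.8% of all expressed genes with a peak) and a 2-fold one for 8 (6.61%, against 3.75%). *GLIPR1L2*, which is no zinc finger gene, had the widest range at 8.87, 5.66 and 2.35 (5.63 ± 3.26). The uneven genes went different ways. *EGR1*, *KLF2*, *ZFP36* and the *EGR2* identifier at 521 were highest in TES5, where *KLF2* had 7.14 against 3.75 and 4.95. *ZBTB20*, *KLF13*, *KLF15*, *ZBED6*, *ZFHX3* and *GLI3* were lowest there. Of 12 identifiers of genes that respond early to stimuli, listed after their values were seen, 5 were highest and 4 lowest in TES5. Over all expressed genes with a peak these shares were 35.9% and 41.8%. The 5 include the *EGR2* identifier of uncertain identity, and nothing is read from these counts.

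**Figure D5:**
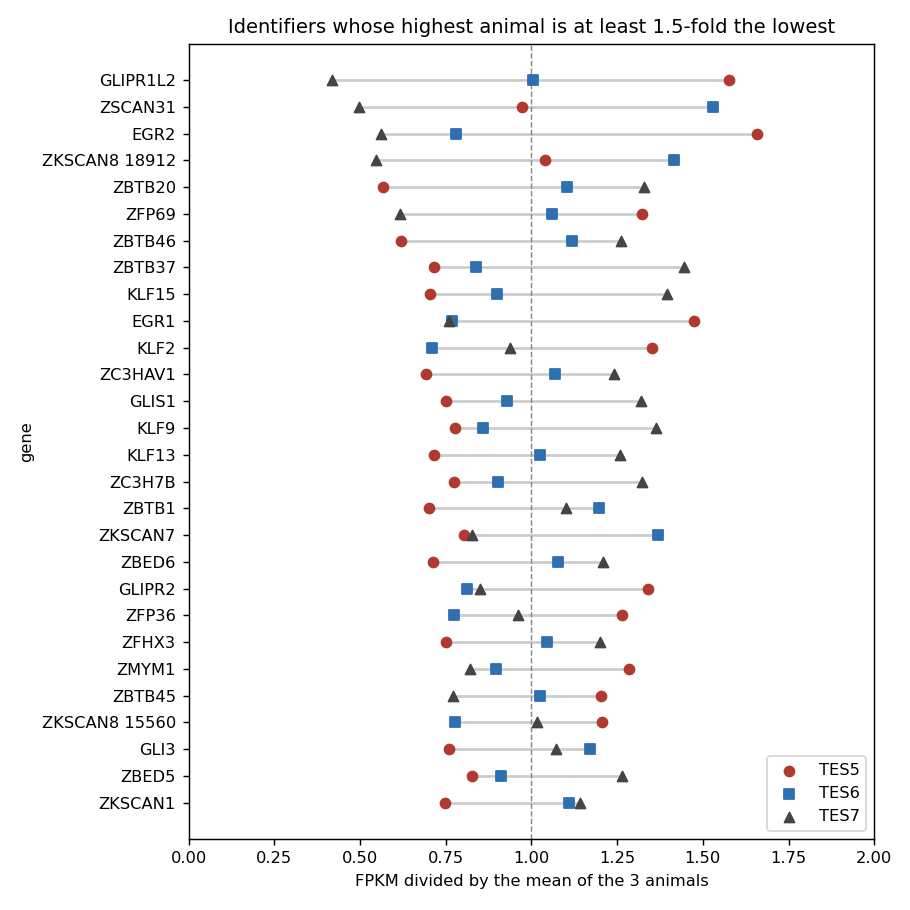
FPKM of each animal divided by the mean of the 3 (horizontal axis) for the 28 expressed identifiers whose highest animal was at least 1.5-fold the lowest (vertical axis, widest range at the top). Animal TES5 is the lowest for 16 of them and the highest for 10, and TES7 is the highest for 13.

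Marker genes of cell types also differed between the animals, and not all in the same way. The summed FPKM of the listed spermatocyte markers (4 of 6 symbols, on 9 identifiers, of which 1 of *SYCP2* was listed at 0) was highest in TES5, at 67.5 against 45.3 in TES6 and 50.05 in TES7. The *DMC1* identifiers with mean FPKM of 0.547 and 1.53 and the *SYCP2* identifier with 0.801 were highest in TES6 instead. The Sertoli markers (3 of 8 symbols, *FSHR*, *SOX9* and *WT1*) were lowest in TES5, at 56.9 against 69.9 and 67.8, as were the peritubular myoid markers (3 of 3, 262 against 295 and 274), the Leydig marker *STAR* (1 of 6, 100 against 108 and 112), the spermatogonial markers (2 of 6, 9.21 against 10.2 and 13.1) and the macrophage markers (3 of 3, 11.7 against 12.8 and 14.5). Among the macrophage markers *CD68* went the other way, at 3.97, 3.69 and 2.92. Endothelial markers (2 of 2) were at 5.11, 6.53 and 4.96, and no spermatid marker of 7 was listed with a peak. Their part in the differences between animals was not tested.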

How the data were processed

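Reads were trimmed by the authors (Trimmomatic), cleared of rRNA (SortMeRNA) and mapped by HISAT2 2.0.4, as the submitters' processing notes and the study's methods give it, to LU_Bosgru_v3.0 (Ensembl release 99). Peaks were called with MeTDiff from IP against input (fragment length 200, peak p-value cutoff 0.01, FDR cutoff 0.05, fold at least 1.5) and annotated with ChIPseeker. The methods speak of calling sample by sample, but the list is 1 for the group, and how the animals were combined is not given in the sources used here. Its columns are positions and lengths in bp. The authors deposited FPKM for the 3 input libraries, with a program not given in the sources used here. Their sums were 280940 to 302365 and differ, and 11906 to 12147 genes per library had an FPKM of at least 1. Read depth behind an FPKM is unknown.

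Peaks were counted by class, width, exon and gene. Shares have Wilson 95% intervals, and FPKM have means and SD over 3 animals. Genes without a peak (12178) carry no symbol in the files and could not be searched by family, and 113 of 120 symbols had an entry in the RefSeq table of another assembly, used for names and neighbours only. With 1 condition and 1 peak list, no test was made. Scripts ran in Python 3.11.15 with pandas 2.3.3, numpy 2.4.6, matplotlib 3.10.9 and SciPy 1.17.1, and procedures were tested on simulated data.

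The members, lists and rules were chosen with earlier results of these data known. The genes named are those with 4 or more peaks, the 10 highest mean FPKM and the 5 widest peaks. Also named are the 5 largest coefficients of variation at a mean FPKM of at least 5. Identifiers listed at 0 or with a peak on an exon of another identifier were included too. Added to these were the member of each family with the most peaks and with the highest FPKM, 19 of 31 symbols of known role that were listed, and partner genes. *GLIS1* to *GLIS3*, *EGR3*, *KLF2*, *KLF13*, *ZKSCAN8*, *ZSCAN16*, *ZSCAN26*, *ZSCAN29* and the second *KLF9* and *ZC3H18* identifiers were named after their values were seen. Some partner genes are not reported here. Alternatives were merged or unique intervals, genes counted by symbol, expressed genes only, narrow peaks, weighting by width, another minimum FPKM or pseudocount, rescaled libraries and each animal left out. No genome sequence of this build was used here, so motifs and exonic peak widths were not analysed.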

Additional observations from a re-analysis of the deposited data

How the results depend on the processing

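The counts of peaks and identifiers stayed within 1.5 times under every alternative tried. Peaks numbered 233 after joining within 100 bp, 245 on expressed identifiers and 263 without those annotated to an exon of another identifier. On symbols with 1 identifier only (chosen after seeing the data) there were 215. Shares were less steady. Joining raised the share of identifiers with 1 peak from 44.5% to 53.3%. Weighting by width lowered the exon class from 76.1% to 51.9% and raised the 5' UTR class from 10.3% to 33.7%, whereas peaks of at most 1000 bp gave 6.17% for the 5' UTR class. The last exon was the label of 37.7% of peaks of the exon class, 21.6% in transcripts with at least 3 exons and 54.0% in narrow peaks. Leaving out each animal in turn gave 121 expressed identifiers each time, a median FPKM of 5.25 to 5.42 and a median coefficient of variation of 8.32% to 13.3%, with the lowest value without TES5 (12.3% with all). The cause was not tested. For the 53 identifiers named by rule, 265 alternative values of the mean FPKM stayed within 1 SD, which leaving out 1 of 3 animals cannot exceed. Rescaling factors were 0.958 to 1.03 by sum and 0.994 to 0.998 by median ratio. No paired analysis was possible because peaks form 1 list for the group and expression covers the input libraries only. With 3 animals, an outlying animal could not be tested for.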
